A study of Mus musculus with 8 samples.

Results

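Chromosome 1 is the longest mouse chromosome. It was followed here through every array probe assigned to it, taken in position order: 16095 of the 232626 probes on all chromosomes, or 7.31% of the autosomal probes. The chromosome was chosen because its level had already been seen to be high in some of these tumours, so its tumour levels are given as a description without a test. Copy number was read by array comparative genomic hybridisation, a method in which test and reference DNA labelled with different dyes compete for the same DNA probes. The samples were 6 hepatocellular carcinomas (HCC) of FEAT transgenic C57BL/6 males aged 16, 21, 20, 18.5, 22 and 12 months (tumours 1 to 6), 1 normal liver of a FEAT transgenic C57BL/6 male aged 13 months and 1 normal liver of a wild-type C57BL/6 male aged 6 months. All 8 were hybridised, labelled with Cy3, against Cy5-labelled normal liver of a wild-type C57BL/6 male aged 6 months. FEAT is another name of Mettl13. The promoter and integration site of the transgene are not given in the labels. Tumour 4 was from a mouse recorded with lung metastases. Each array is 1 mouse, neither kind of non-tumour liver has a replicate, and the mice of tumours 1 to 5 were older than those of the non-tumour livers, so that effects of age and of tumour cannot be told apart. The stated question of the study was whether copy number changes of these tumours resemble those of human HCC.

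A diploid cell carries a pair of each autosome, and a whole extra copy, usually gained by missegregation at mitosis, lifts every probe of that chromosome by the same amount. An extra copy of part of a chromosome instead leaves a step inside it, at the breakpoint. Mouse chromosome 1 is a mosaic of segments that lie on several human chromosomes. The gene lists used here follow, from its centromere onwards, orthologues of genes of human 8q, 6p and 6q, 2q, 18q, 2q again and 1q. Segments outside these lists were not followed by orthologue. Gain of 1q and of 8q is among the commonest copy number changes of human HCC. The logarithm of the ratio of 3 copies to 2 is 0.58 on the log2 scale if every cell of a sample carries the gain. In bulk DNA, a gain in fewer cells and a smaller gain per cell cannot be told apart.

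The probes covered 191.9 Mb, from position 3009539 to 194916389 (coordinates as on the array, of a genome build that the sources used here do not name), at a median spacing of 8.44 kb and with no gap above 236 kb. Of the 16095 probes, 10597 carry a gene name and 15102 are 60 bases long. Sequences of probes that the results turn on are printed with G and C in capitals, since the level along the chromosome moved with GC content, as described further on. The first 3 lie in the 5 Mb bins where tumour 4 was highest and lowest and were picked as nearest to their bin over all 8 arrays and GC content together, with distances measured in units of probe noise, so that a single value can lie well off the bin mean, the next pair are the outermost probes of a short loss within Smyd3 in tumour 3, and the last 4 are the probes of Mettl13 and the 2 probes that differed between FEAT and wild-type livers.
High-bin probe A_67_P04301538, chr1:149173448-149173507: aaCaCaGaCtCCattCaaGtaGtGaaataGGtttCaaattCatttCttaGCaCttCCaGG
High-bin probe A_67_P04302089, chr1:149516368-149516427: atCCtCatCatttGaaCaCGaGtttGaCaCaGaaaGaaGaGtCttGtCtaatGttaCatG
Low-bin probe A_67_P04270070, chr1:133605671-133605730: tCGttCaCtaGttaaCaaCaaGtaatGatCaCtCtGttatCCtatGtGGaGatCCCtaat
Smyd3 probe A_67_P04371870, chr1:179230850-179230909: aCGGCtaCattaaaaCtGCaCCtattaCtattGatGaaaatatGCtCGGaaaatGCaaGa
Smyd3 probe A_67_P04372026, chr1:179292189-179292248: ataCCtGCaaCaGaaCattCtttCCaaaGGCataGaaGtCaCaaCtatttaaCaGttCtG
Mettl13 probe A_53_P152767, chr1:162500192-162500247: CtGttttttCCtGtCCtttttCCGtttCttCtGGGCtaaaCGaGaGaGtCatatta
Mettl13 probe A_53_P163422, chr1:162506803-162506861: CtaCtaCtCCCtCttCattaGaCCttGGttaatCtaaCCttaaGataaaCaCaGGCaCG
Npl probe A_53_P149955, chr1:153470455-153470514: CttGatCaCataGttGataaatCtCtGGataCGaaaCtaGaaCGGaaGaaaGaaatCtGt
M64842 probe A_67_P04350355, chr1:169809630-169809689: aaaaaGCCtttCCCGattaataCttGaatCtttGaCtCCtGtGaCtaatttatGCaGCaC
The 3 bin probes hold the same number of G and C bases, 22 of 60 each. The high-bin probes had log2 ratios of 0.40 and 0.08 in tumour 4 and 0.38 and 0.37 in tumour 5, and the low-bin probe 0.12 in tumour 4 and 0.38 in tumour 5. The Smyd3 probes had -0.81 and -1.25 in tumour 3.

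Chromosome 1 was high in tumours 5 and 4 and near the level of the non-tumour livers in the other tumours. The mean log2 ratio over its probes, with each array centred on the median of its autosomal probes, was 0.06, 0.04, 0.05, 0.18, 0.32 and 0.02 in tumours 1 to 6, against 0.01 in the normal FEAT liver and 0.03 in the wild-type liver. On a linear scale this is 1.25 times the reference in tumour 5 and 1.13 times in tumour 4. The tumours averaged 0.11 ± 0.12 (SD, n = 6) and the 2 non-tumour livers 0.02, a difference of 0.09 that is smaller than the SD between tumours and rests on tumour 5 and tumour 4: it was 0.05 without tumour 5 and 0.02 without both. The levels depend on the centring: with each array centred on the mode of its 1 Mb bins, the difference was 0.07. The medians over probes, which are less open to outlying probes, were 0.03, 0.02, 0.01, 0.14, 0.31 and 0.02 in the tumours and 0.01 in either non-tumour liver.

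The same order was seen when chromosome 1 was set against the rest of its own array. Over the median of the other 18 autosomes, it stood 0.28 higher in tumour 5 and 0.16 higher in tumour 4, against 0.01 to 0.03 in tumours 1, 2, 3 and 6 and 0.01 in both non-tumour livers. In tumour 5 it was the highest of the 19 autosomes, above chromosome 15 at 0.26. In tumour 4 it ranked behind chromosomes 16 and 18, with 0.18 on chromosome 1, 0.20 on chromosome 16 and 0.19 on chromosome 18. Whether these 3 levels differ was not tested. Tumour 1, whose chromosome 15 stood at 0.31, had chromosome 1 at 0.06. Chromosome 1 also ranked among the 3 highest autosomes in tumours 1, 2, 3 and 6 and in both non-tumour livers, so a high rank alone did not set tumours 4 and 5 apart. What did was the size of the excess.

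**Figure D1:**
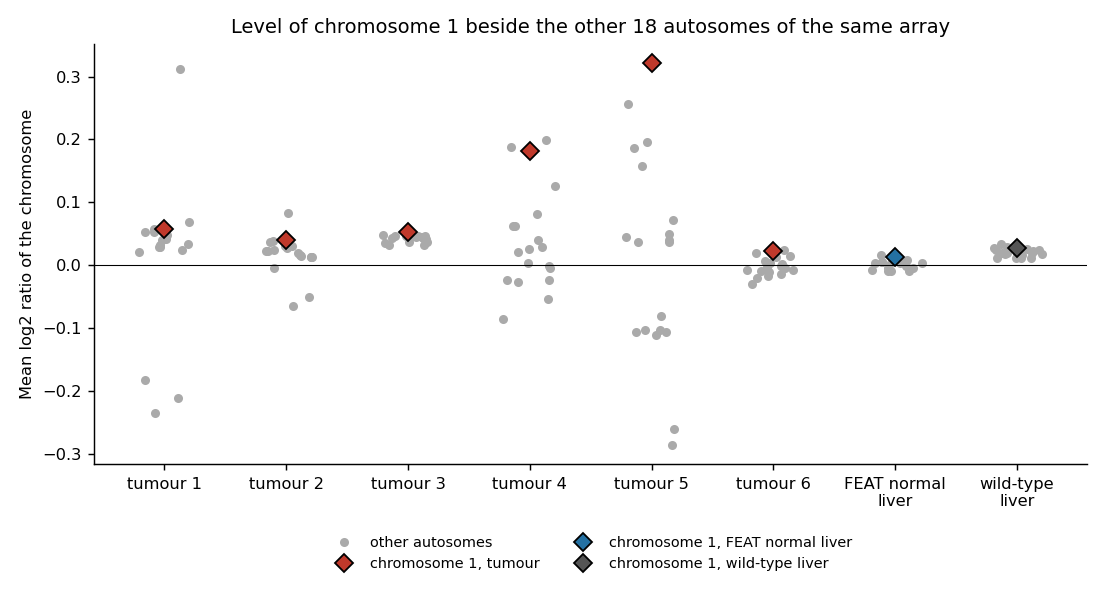
Mean log2 ratio of each autosome in each array, with chromosome 1 as a diamond and the other 18 autosomes as grey points. Chromosome 1 of tumour 5 (0.32) lies above all other autosomes of its array, that of tumour 4 (0.18) lies with chromosomes 16 and 18, and in the other arrays it lies between 0.01 and 0.06.

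Single probes of tumour 5 were nearly all above 0. Of the probes with a value, 94.0% were above 0 in tumour 5 and 61.8% in tumour 4, against 51.3% to 55.6% in tumours 1, 2, 3 and 6, 50.9% in the normal FEAT liver and 51.6% in the wild-type liver. Noise between neighbouring autosomal probes was 0.22 in tumour 5 and 0.49 in tumour 4, the least noisy tumour array and the noisiest of all 8. The share above 0 depends on the noise of an array as well as on its level. Values of single probes in tumour 4 scatter by more than its shift, and its level can be read only from means over many probes.

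Averaged over 1 Mb, the gain of tumour 5 covered the whole chromosome. Of 192 bins with at least 20 probes, 192 lay above both non-tumour livers in tumour 5 and 187 in tumour 4, while over all autosomes 50.4% and 52.1% of bins did so. The counts in tumours 1, 2, 3 and 6 were 142, 110, 115 and 68, against an autosomal share of 59.1%, 45.5%, 57.5% and 21.5%. All 192 bins of tumour 5 and 100 of tumour 4 were above 0.18, the highest value that any bin of the chromosome had in a non-tumour liver. Tumours 1, 2, 3 and 6 had 0, 1, 2 and 1 such bins. The lowest bin of tumour 5 was at 0.24 and its highest at 0.48, whereas tumour 4 ran over the wider range of -0.02 to 0.56.

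**Figure D2:**
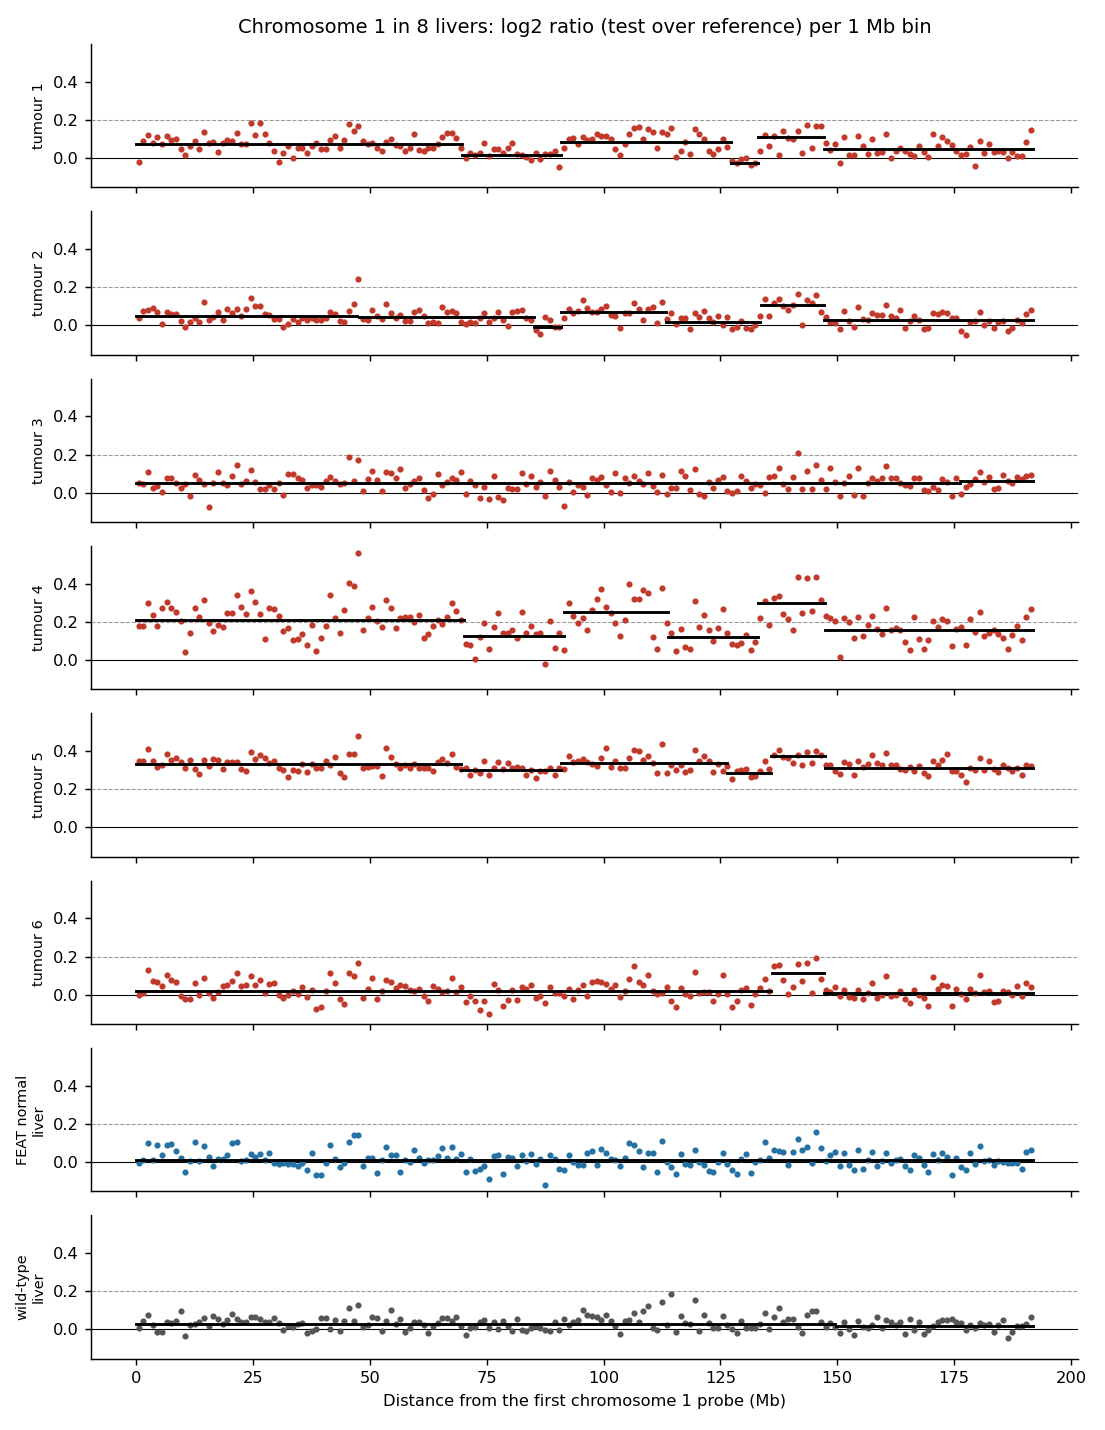
Log2 ratio of test over reference DNA in 1 Mb bins (points) along chromosome 1, by distance from its first probe, in the 6 tumours, the normal FEAT liver and the wild-type liver, with segment means as black bars (segments of 20 probes or more), 0 as a solid line and the calling threshold of 0.2 dashed. Tumour 5 lies above the threshold throughout, tumour 4 straddles it, and the other arrays stay near 0.

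Each array was divided into segments of constant level, and a segment was called gained at a mean of 0.2 or more. In tumour 5 every probe with a value on chromosome 1 lay in a gained segment (15951 of 15951, 100%), beside 13.9% of its autosomal probes. Chromosome 1 alone held 52.9% of all gained autosomal probes of that tumour. In tumour 4 it was 7650 of 15973 (47.9%), beside 7.01% over the autosomes, and chromosome 1 held 50.0% of the gained probes. In tumours 1, 3 and 6 and in the normal FEAT liver 0 probes of the chromosome were in a gained segment, beside 4.21%, 0.00548%, 0.0151% and 0.00822% of the autosomal probes. In tumour 2 and the wild-type liver 8 and 5 probes were, beside 0.0377% and 0.0639%. Chromosome 1 was nearly free of losses. Its only probes in a lost segment on any of the 8 arrays were 8 in tumour 3, although 9.2%, 0.0225%, 0.0242%, 0.656%, 11.6% and 0.0495% of the autosomal probes were lost in tumours 1 to 6, 0.047% in the normal FEAT liver and 0.00506% in the wild-type liver. In tumour 4 the gained share depended on the threshold: with 0.1 it was 100% and with 0.3 it was 0%, since its segments lie between 0.12 and 0.30. It was also 0% after correction for GC content, which left the mean of the chromosome at 0.17.

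Both tumours had 5 internal borders. The segments of tumour 5 had means of 0.33, 0.30, 0.34, 0.28, 0.38 and 0.31, so the largest step was 0.09, near BC042698 at 138.9 Mb. The other borders lay at 72.4 Mb near Wdt2, at 93.9 Mb near AK153979, at 129.4 Mb near D130067I03Rik and at 150.3 Mb near BC003331. These are array names of transcripts at the border, listed for position. The segments of tumour 4 had means of 0.21, 0.12, 0.25, 0.12, 0.30 and 0.16, with borders at 73.2, 94.5, 116.7, 136.0 and 150.3 Mb. The border at 94.5 Mb is nearest to AK153979, 620 kb away, and the last to Tpr, which encodes a protein of the nuclear pore basket.

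The same borders appeared where the chromosome was not gained. Tumour 1, at 0.06, had 5 borders, of which 4 lay within 2 Mb of a border of tumour 4, and tumour 2 had 5 beside a short segment, again 4 of them within 2 Mb. Of the borders of tumour 5, 3 were shared with tumour 4 in this sense, and tumour 6 had 2 borders, at 138.9 and 150.2 Mb, both within 2 Mb of one in tumour 5. The normal FEAT liver had none. The wild-type liver and tumour 3 had none beyond those of a short segment. On the other 18 autosomes the median number of borders was 4 in tumour 4 and 3.5 in tumour 5, so 5 on the longest chromosome did not stand out. After GC correction the arrays of tumours 1, 2, 4, 5 and 6 had 0 borders on chromosome 1. After subtraction of the smoothed wild-type profile, tumour 5 had 0 and tumour 4 had 4.

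Evenness was measured as the SD of the means of 39 bins of 5 Mb, and set against what probe noise alone gives for bins of that size. In tumour 5 the SD was 0.022, with bins between 0.28 and 0.38, against 0.024 in the normal FEAT liver and 0.017 in the wild-type liver. Its other 18 autosomes had a median SD of 0.024, and probe noise alone would give 0.011. Tumour 4 was the least even, with an SD of 0.059, bins between 0.08 and 0.36, and 0.025 from noise alone. Its other autosomes had the same median SD of 0.059, so that chromosome 1 was no less even than the rest of that array. The SDs of tumours 1, 2, 3 and 6 were 0.034, 0.027, 0.021 and 0.030. The parts of the chromosome before and after its midpoint had means of 0.32 each in tumour 5, and of 0.19 before and 0.17 after the midpoint in tumour 4.

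**Figure D3:**
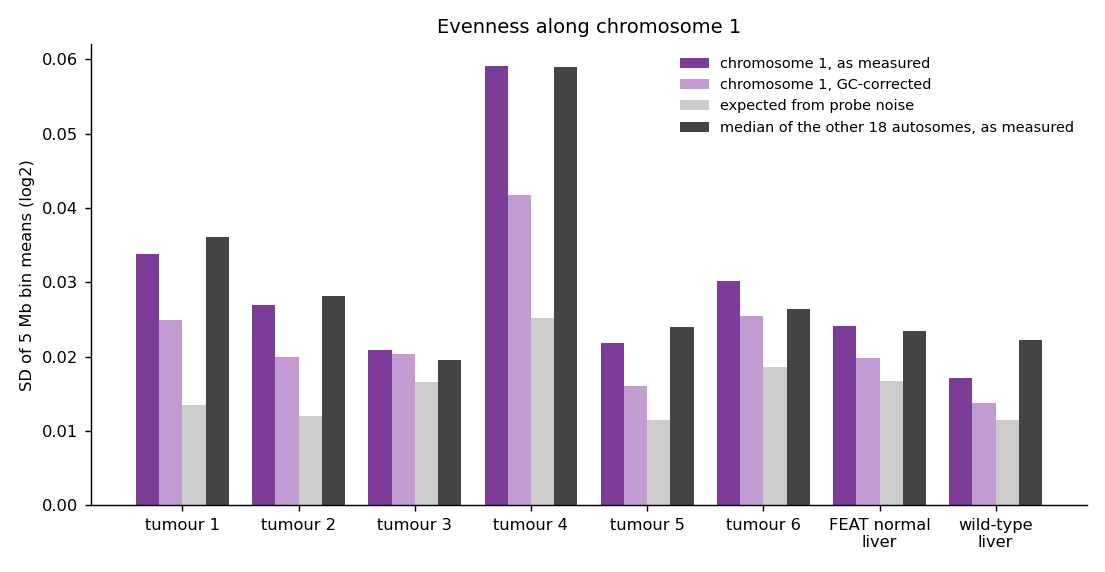
SD of the means of 39 bins of 5 Mb along chromosome 1 (log2), as measured and after GC correction, beside the SD that probe noise alone would give and the median SD of the other 18 autosomes. Tumour 4 (0.059) is the least even array, on chromosome 1 and on its other autosomes alike. Tumour 5 (0.022) lies between the normal FEAT liver (0.024) and the wild-type liver (0.017), whose noise differs.

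Highs and lows fell in the same places in most arrays. The bin of 145 to 150 Mb, a gene-poor stretch whose named probes are mostly of Pla2g4a (cytosolic phospholipase A2, which releases arachidonic acid from membranes), was the highest in tumours 1, 4, 5 and 6 and in the normal FEAT liver, at 0.14, 0.36, 0.38, 0.12 and 0.08. It was among the 3 highest in tumour 2 (0.10) and in the wild-type liver (0.06). The bin of 130 to 135 Mb, with Nfasc (neurofascin, an axonal adhesion molecule), Lgr6 (an R-spondin receptor) and Syt2 (a calcium sensor of synaptic vesicles), was the lowest in tumours 1, 2, 4 and 5, at -0.02, -0.01, 0.08 and 0.28. It was among the 3 lowest in tumour 6, the normal FEAT liver and the wild-type liver, at -0.02, -0.03 and 0.01. Other genes in the 3 highest bins of tumour 4 or of tumour 5 were Cdc73, Rgs13 and Rgs18, Sntg1 and St18, Cdh20 and Bai3. Those in the 3 lowest bins of either were Epha4 and Pax3, Hdac4 and Kif1a, Ugt1a10, Susd4 and Enah. The level of a bin is not that of each of its genes. In tumours 4 and 5, Epha4 had 0.27 and 0.34, Hdac4 0.28 and 0.33, Enah 0.45 and 0.39 and Pax3 0.02 and 0.28.

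Over the 39 bins, the profiles of the 28 pairs of arrays correlated with r from 0.28 to 0.89 (median 0.71). All pairs were hybridised against the same kind of reference liver and share probe sequences, so the bins are not independent points. The highest r was between tumours 4 and 6, one with and one without a raised chromosome 1, and r between tumours 4 and 5 was 0.79. GC content of the probes, which averaged only 35.5% to 37.2% over a bin, correlated with the level at r from -0.77 to -0.28. The high bin of Pla2g4a had 35.9% and the low bin of Nfasc 37.0%. The level changed by -0.085 per percentage point of GC in a window of 500 kb in tumour 4 and by -0.028 in tumour 5, against -0.024 in the normal FEAT liver and -0.021 in the wild-type liver. On the other 18 autosomes the slopes were -0.082, -0.029, -0.024 and -0.028 in the same 4 arrays. GC correction was a quadratic fit on the GC content of the probe and of its window together. After it, the SD of the bins was 0.042 in tumour 4 and 0.016 in tumour 5. It was 0.020 in the normal FEAT liver and 0.014 in the wild-type liver, and r between arrays was 0.19 to 0.86 (median 0.56). The correction did not remove the relation to GC content: the corrected levels of the bins still correlated with the GC content of their probes, at r from -0.48 to -0.10 over the 8 arrays, with -0.44 in tumour 4 and -0.40 in tumour 5. The mean of the chromosome was 0.17 in tumour 4 and 0.32 in tumour 5 after this correction, so the level stayed where it was while the internal borders did not.

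**Figure D4:**
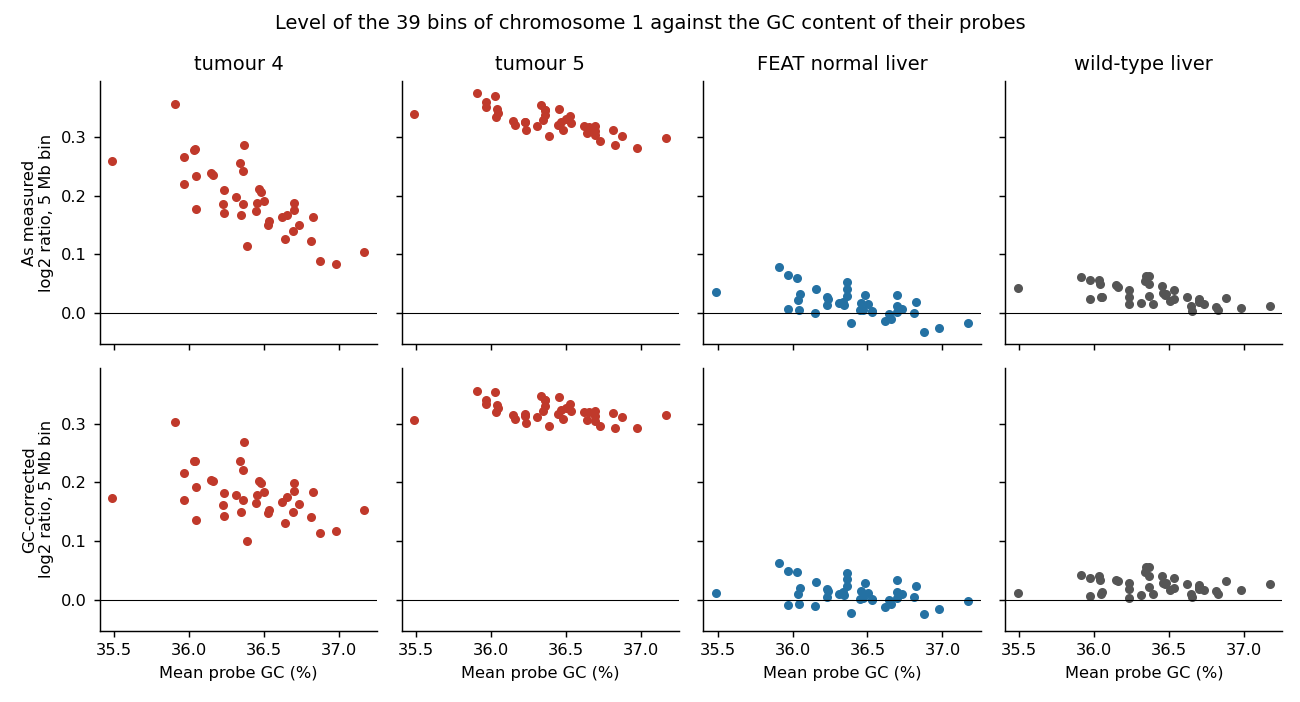
Log2 ratio of the 39 bins of 5 Mb of chromosome 1 against the mean GC content of their probes, as measured (upper row) and after GC correction (lower row), in tumours 4 and 5 and the non-tumour livers. Bins poorer in GC are higher in all 4 arrays as measured, with the steepest slope in tumour 4 (-0.085 per percentage point), and the height of tumours 4 and 5 above the non-tumour livers remains after correction.

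Genes of the chromosome followed its level. Over the 1615 genes named on chromosome 1, the median of the gene means was 0.17 in tumour 4 and 0.30 in tumour 5, against 0.02 in the normal FEAT liver and 0.01 in the wild-type liver, while the 23324 genes of the other autosomes had medians of 0.00 and -0.03 in tumours 4 and 5. The mean of a gene lay above both non-tumour livers for 36.8%, 32.9%, 40.6%, 62.7%, 88.7% and 32.0% of these genes in tumours 1 to 6, while it did so for 32.2%, 28.7%, 40.8%, 37.3%, 33.9% and 28.8% of all autosomal genes. Tumours 4 and 5 thus differed from the autosomal share by far more than the other tumours did. All genes found of each list lay in gained segments in tumour 5, where 11.7% of autosomal genes did. This was fixed in advance, since every chromosome 1 probe with a value lay in a gained segment of tumour 5. The count in tumour 4, where 4.64% of autosomal genes and 47.9% of chromosome 1 probes lay in gained segments, differed by position. Of the human 8q orthologues, at 4.49 to 17.2 Mb, 19 of 19 lay in gained segments of tumour 4, and of the human 6p and 6q orthologues, at 19.4 to 34.4 Mb, 11 of 11. Of the human 2q orthologues, at 37.0 to 128 Mb, 26 of 42 did, of the human 18q orthologues 6 of 6, and of the human 1q orthologues, at 131 to 193 Mb, 5 of 54. These counts repeat the segment borders of tumour 4, which were absent after GC correction.

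The list medians show how small the differences behind these counts are. For the 8q orthologues the median was 0.25 in tumour 4 and 0.34 in tumour 5, against 0.07 in the normal FEAT liver and 0.01 in the wild-type liver. For the 1q orthologues it was 0.13 in tumour 4 and 0.29 in tumour 5, against 0.01 in both non-tumour livers. The 8q orthologues thus stood above the 1q orthologues in both tumours, and they did so in tumours 1, 2, 3 and 6 and the normal FEAT liver too, where the chromosome was not gained. The 6p and 6q orthologues had medians of 0.26 and 0.32 in tumours 4 and 5 and the 2q orthologues of 0.18 and 0.32. The 6 genes of the 18q list had medians of 0.18 in tumour 4 and 0.31 in tumour 5, but also of 0.18 in tumours 1 and 6, against -0.01 in the normal FEAT liver and 0.05 in the wild-type liver.

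**Figure D5:**
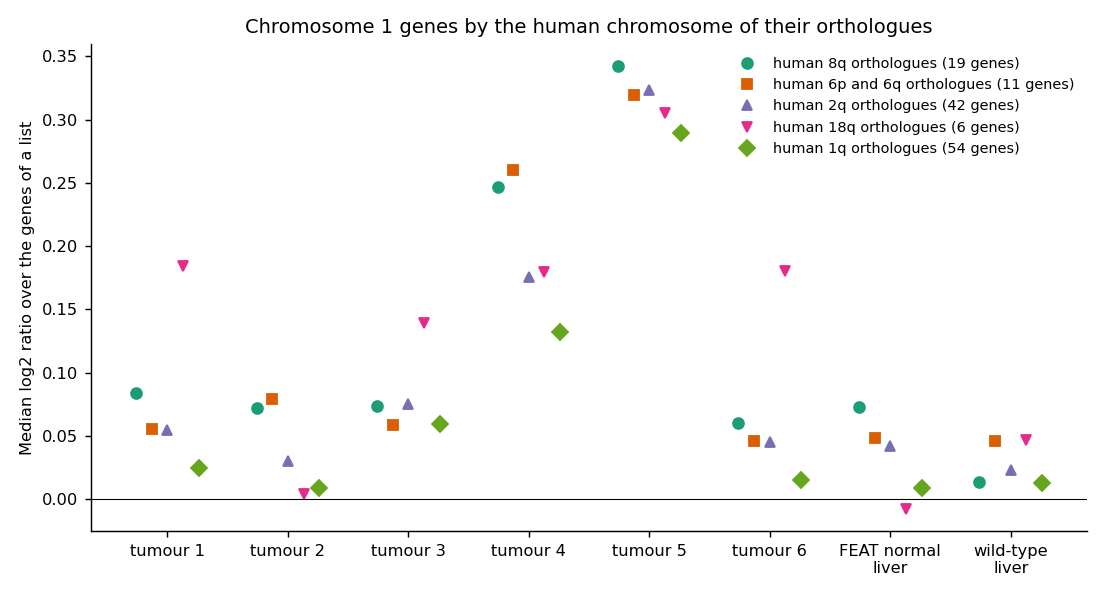
Median log2 ratio over the chromosome 1 genes found on the array, grouped by the human chromosome arm of their orthologues, in the 6 tumours, the normal FEAT liver and the wild-type liver. All lists are highest in tumour 5 (0.29 to 0.34), and the 1q list lies below the 8q list in 8 of 8 arrays.

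Among the 8q orthologues, Sntg1, a syntrophin of the dystrophin complex covered by 94 probes, had 0.08, 0.01, 0.01, 0.27, 0.34 and 0.06 in tumours 1 to 6, against 0.04 in the normal FEAT liver and 0.01 in the wild-type liver. Its values in tumours 4 and 5 lie apart from all others. Ncoa2, a coactivator of nuclear receptors, showed -0.08, -0.04, 0.04, -0.03, 0.22 and -0.14 over 27 probes, against -0.10 in the normal FEAT liver and -0.05 in the wild-type liver. It lay inside a gained segment of tumour 4 but was itself at the non-tumour level there. Mybl1, a transcription factor of male meiosis, reached 0.78 and 0.64 in tumours 4 and 5, on 4 probes that gave 0.04 in the normal FEAT liver and 0.32 in the wild-type liver.

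Pkhd1, the gene of fibrocystin in the cilia of bile duct cells, is a large gene with 66 probes around 20.5 Mb. Its means were 0.06, 0.10, 0.17, 0.26, 0.37 and 0.05 in the tumours, against 0.05 in the normal FEAT liver and 0.06 in the wild-type liver. Of the 2q orthologues, Bmpr2, a receptor of bone morphogenetic proteins, had 0.18, 0.08, 0.07, 0.36, 0.43 and 0.23 over 16 probes, against 0.06 in both non-tumour livers. Hdac4, a histone deacetylase, had 0.08, 0.08, 0.15, 0.28, 0.33 and 0.07 over 32 probes, against 0.06 in the normal FEAT liver and 0.08 in the wild-type liver. In all 3 genes tumours 4 and 5 were the highest of the 8 arrays.

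Genes of growth, the cell cycle and cell death stood close to the level of the other genes of the chromosome. The 31 genes found of the growth, cell cycle and apoptosis list had medians of 0.18 in tumour 4 and 0.27 in tumour 5, against 0.01 in the normal FEAT liver and 0.03 in the wild-type liver. In gained segments lay 13 and 31 of them, beside 47.9% and 100% of chromosome 1 probes and 4.64% and 11.7% of autosomal genes. These counts are near the share of the chromosome and say nothing particular about the list. Bcl2, which blocks apoptosis at the mitochondrion, had -0.05, -0.05, -0.10, -0.01, 0.27 and -0.08 over 24 probes, against -0.12 in the normal FEAT liver and -0.02 in the wild-type liver, so it was above 0 in tumour 5 alone. Mdm4, an inhibitor of p53, had 0.17, 0.19, 0.29, 0.41, 0.42 and 0.11 over 7 probes, against 0.01 in the normal FEAT liver and 0.15 in the wild-type liver. Tumours 4 and 5 were the highest of the 8 arrays there. Casp8, the initiator caspase of death receptors, had 0.18 and 0.30 in tumours 4 and 5, against -0.01 in the normal FEAT liver and 0.15 in the wild-type liver.

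Of the liver function list, the 21 genes found had medians of 0.18 in tumour 4 and 0.31 in tumour 5, against 0.05 in the normal FEAT liver and 0.02 in the wild-type liver. In gained segments lay 10 and 21 of them, again near the 47.9% and 100% of chromosome 1 probes, beside 4.64% and 11.7% of autosomal genes. Prox1, a transcription factor of hepatoblasts, had 0.09, -0.19, 0.12, 0.04, 0.37 and 0.04 over 6 probes, against 0.02 in the normal FEAT liver and 0.04 in the wild-type liver, with tumour 5 well above the rest. Glul, glutamine synthetase of pericentral hepatocytes, had -0.17 in tumour 4 and 0.09 in tumour 5 on 3 probes, against -0.08 in the normal FEAT liver and -0.07 in the wild-type liver, which shows how far the mean of a few probes can lie from its segment. Apoa2, an apolipoprotein of high density lipoprotein, is read by 1 probe that was below 0 in 8 of 8 arrays, from -0.93 in tumour 6 to -0.03 in the wild-type liver.

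Short segments were few. In tumour 3, 8 probes of Smyd3, a lysine methyltransferase gene, from the first to the last of the printed pair at 179.2 to 179.3 Mb, averaged -0.79 and were called lost, while its other 66 probes averaged 0.10. The same 8 probes averaged 0.01, 0.09, 0.21, 0.26 and -0.06 in tumours 1, 2, 4, 5 and 6. Their mean was -0.08 in the normal FEAT liver and 0.24 in the wild-type liver, so it reached the loss of tumour 3 in no other array. In tumour 3 itself, 1 of the 8 (A_67_P00262952) stood at 0.18. The last of the printed pair had -0.41, -0.41 and -0.45 in tumours 4 and 6 and the normal FEAT liver. It had -0.09, -0.13, 0.08 and 0.03 in tumours 1, 2 and 5 and the wild-type liver. In tumours 4 and 6 and the normal FEAT liver, A_67_P04371905 had -0.34, -0.35 and -0.37 and A_67_P04371955 -0.44, -0.65 and -0.58. The remaining Smyd3 probes of the segment were higher in these arrays, up to 1.01 in tumour 4 on the first of the printed pair. In tumour 2, 8 probes at 50.4 to 50.5 Mb averaged 0.56, with no named gene inside and AK020188 the nearest. They were as high or higher in tumours 4 and 5, at 1.03 and 0.69, without being called there as a segment of their own, and stood at 0.24 in the normal FEAT liver and 0.17 in the wild-type liver. In the wild-type liver, 5 probes at 152.6 Mb of Rgl1 and BC096449 averaged 0.59, and in tumour 4 those with a value averaged 1.24. Short high segments thus occurred on an array in which wild-type DNA was set against wild-type DNA of the same strain. After GC correction, tumour 2 and the wild-type liver had 0 borders on the chromosome, while tumour 3 had 2.

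All 7 FEAT livers, the 6 tumours among them, were also set against the wild-type liver, probe by probe. The FEAT livers include tumours 4 and 5, whose levels lay behind the choice of the chromosome, so the counts are given with and without both. With limma, fitted over all probes of all chromosomes with Benjamini-Hochberg adjustment, 2 of 15704 chromosome 1 probes were higher in the FEAT livers (0.0127%), where 0.00355% of all probes were. None was lower (0.00443% of all probes). At an unadjusted p under 0.05, 806 probes were higher (5.13%, beside 3.51% of all probes) and 88 lower (0.56%, beside 2.11%). The low count of lower probes rested on tumours 4 and 5: it was 299 without tumour 5, 151 without tumour 4 and 391 without both (2.49%, beside 3.12%), while 752 were then higher (4.79%, beside 4.41%). Without both tumours, a setting chosen after seeing the data, 2 probes were still called higher and 0 lower at the adjusted threshold. The lone wild-type array was assumed to vary like the FEAT arrays. The higher count fell to 1 in each of 5 fits that left out tumour 1, 2, 3 or 6 or the normal FEAT liver.

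On both called probes the wild-type array had a low value. The probe of Npl, the gene of N-acetylneuraminate lyase, had 0.02, 0.43, 0.46, 0.73, 0.50 and 0.39 in the tumours and 0.25 in the normal FEAT liver, against -1.85 in the wild-type liver. The FEAT mean was 0.40 ± 0.22 (SD, n = 7), and the difference was 2.24 with an SE of 0.22 and a limma adjusted p of 0.00846 (0.0413 without tumours 4 and 5). On the wild-type array the adjacent Npl probes on either side stood at 0.55 and 0.18, so the low value was not shared by the nearest probes of the gene. The probe of M64842 had a FEAT mean of 0.03 ± 0.13 (SD, n = 7), against -1.50 in the wild-type liver, a difference of 1.52 with a limma adjusted p of 0.0303 (0.0497 without tumours 4 and 5). Its nearest neighbours on the wild-type array were at 0.01 and 0.56. Both differences were the same way in 7 of 7 FEAT livers, which was a condition for naming a called probe and adds no support.

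Mettl13 itself, a lysine methyltransferase acting on the translation elongation factor eEF1A, lies on chromosome 1 at 162.5 Mb and is read by 2 probes named 5630401D24Rik on the array. The first had 1.37, 1.56, 3.73, 0.26, 0.59 and 0.44 in tumours 1 to 6 and 2.05 in the normal FEAT liver, against -0.15 in the wild-type liver. The second had 0.37, 0.43, 0.56, 1.07, 1.03 and 0.75 in the tumours and 0.54 in the normal FEAT liver, against 0.15 in the wild-type liver. Both were above the wild-type value in 7 of 7 FEAT livers, with adjusted p = 0.817 for either probe in the limma fit. On the first probe tumour 4 was the lowest of the tumours, while on the second tumours 4 and 5, which also had the highest levels of the chromosome, were the 2 highest.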

How the data were processed

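Genomic DNA of 8 livers was hybridised to 2-colour Agilent mouse 244A arrays, 1 array per mouse. The deposited values are log2 ratios of test (Cy3, per the labels) over reference (Cy5). On the wild-type array, the only scanner file used here, they equalled the log10 ratio of red over green that, per the file headers, Feature Extraction 9.1.3.1 wrote with protocol CGH-v4_91, after a sign turn and a change of base, plus 0.0014 (largest deviation 5e-07). For the other 7 arrays the direction is taken from the labelled dyes. The intensity values deposited in that file are, per the file headers, background-subtracted, spatially detrended and dye-normalised. Its flags deposited for each spot, other values of 0 or 1, mark dim, saturated or outlying spots, as 70 chromosome 1 probes were. CGH analytics 3.4 is named in the series' design text for the authors' own analysis.

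Spots of a probe were averaged (16283 chromosome 1 spots, 16095 probes) and values were centred per array on the autosomal median, with no loess or quantile step. Between 71 and 187 chromosome 1 probes had no value on an array. Values beyond 3 noise SDs of a running median of 5 probes were drawn in, and the chromosome was segmented by penalised least squares (penalty factor 2, at least 5 probes, calls at 0.2). GC correction took out a quadratic fit on the GC content of the probe, the mean probe GC content in windows of 500 kb and their product. The fit used autosomal values less the mean of their chromosome. Segmentation and limma were tested on simulated data. FEAT and wild-type livers were compared with limma 3.58.1 in R 4.3.3 over all probes, at an adjusted p of 0.05. Python 3.11.15 with numpy 2.4.6, pandas 2.3.3 and numba 0.67.0 was used.

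The chromosome, its gene lists and the rule that names genes were chosen with earlier results of these data known. Named were Mettl13, up to 4 examples per gene list, genes at short segments, at the borders of tumours 4 and 5 and in their 3 highest and 3 lowest 5 Mb bins, and probes past the limma threshold. A probe past that threshold was named only if all FEAT livers lay on one side of the wild-type value. Array names were matched to current symbols through a RefSeq table (GRCm38.p6), which gave names only. Sequences are those of the array's scanner file. The number of arrays, not of probes, limits the precision. Some items are not reported here.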

Additional observations from a re-analysis of the deposited data

Results flagged for a closer look

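Among 4 groups of 6 tumour values (the SD of 5 Mb bins before and after GC correction and the 2 Mettl13 probes), 2 had a highest value farther from its neighbour, relative to the group's range, than Dixon's 95% limit allows. Chance flags about 1 in 20 groups, and the 2 SDs come from the same bins. Levels of the chromosome lay behind its choice and were not examined in this way. The SD of 5 Mb bins in tumour 4 was 0.0591, while the other tumours lay between 0.0209 and 0.0338, and after GC correction it was 0.0417, while the others lay between 0.0160 and 0.0255. Tumour 4 was also the noisiest array, and its probe noise alone would give an SD of 0.025 for such bins. Its other 18 autosomes had a median SD of 0.0590, and of 0.0379 after GC correction, so the flags do not set chromosome 1 apart.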

How the results depend on the processing

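Of 93 alternatives, 55 left a result within its limits and 38 moved it. Only the tumour difference, with 13 of the 93, could turn its direction, and it did so in 0. Shares, counts and SDs cannot fall below 0. The limits were the SD between tumours for the tumour difference, the 95% interval of the main value for shares and SDs of bins, which is narrow for shares of this many probes, and 1.5 times the main value for counts. The tumour difference of 0.09 kept its sign, at 0.05 to 0.11 with a tumour left out and at 0.02 without tumours 4 and 5, a setting chosen after seeing the data. Its limit, the SD of 0.12, is larger than the difference, so even the fall to 0.02 counted as within the limit. In tumour 4 the gained share of 47.9% became 100% and 0% at thresholds of 0.1 and 0.3, 44.9% and 0% at penalty factors of 1 and 4, 12.7% with centring on the mode, 0% after GC correction, 3.60% after subtraction of the smoothed wild-type profile, 37.1% and 22.9% on odd and even probes and 42.8% without drawing values in. Its 5 borders became 33 and 0 at penalty factors of 1 and 4, 0 after GC correction and 2 on even probes. They stayed within the limit at 4 on odd probes and 4 after subtraction of the smoothed wild-type profile. With centring on the mode, the segments of tumour 4 stood at 0.09 to 0.27 and those of tumour 5 at 0.24 to 0.33. In tumour 5 the gained share became 80.8% at a threshold of 0.3, 99.7% at a penalty factor of 1 and 99.97% without drawing values in. Its 5 borders became 21 and 0 at penalty factors of 1 and 4, and 1 and 0 on odd and even probes. They became 0 after GC correction or subtraction of the wild-type profile. In settings chosen after seeing the data, they became 8 without drawing values in. They became 3 with probes left out whose spots were marked dim, saturated or outlying on the wild-type array, also a setting chosen after seeing the data. The SD of 0.0591 in tumour 4 became 0.0417 after GC correction and 0.0465 less the wild-type profile. That of 0.0218 in tumour 5 became 0.0160 and 0.0152, and 0.0295 with 2 Mb bins. With the probe-by-probe difference from the wild-type array, chosen after seeing the data, tumour 4 had a gained share of 6.45% and 5 borders. In that setting tumour 5 had 0 borders and its SD was 0.0154. The limma count of higher probes was 1 to 2 with an array left out. The cause was not tested for any of these moves. No paired analysis was possible because the labels number no replicates across groups and each non-tumour group is 1 array. Probe noise of 0.22 to 0.49 limits what single probes show.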
